A study of Mus musculus with 3 samples.

Results

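The cells described here are 11070 sorted cells that were kept for differential expression as typical neurons, out of 17396 cells that had passed their first limits on mitochondrial share, UMIs and genes. They were found as the cells marked as retained in the authors' own list of neuronal cells, which the authors had made from the same counts. They are called retained cells below. Another 873 cells on the same list were set apart by the authors as atypical, and the 5453 filtered cells outside the list (other cells) were the comparison. Medial prefrontal cortex (mPFC) of C57Bl6 mice at postnatal day 5 had been dissociated with papain, sorted by FACS for tdTomato fluorescence and captured in droplets with the 10X Genomics kit, which tags the 3′ end of each transcript with a unique molecular identifier (UMI). There was 1 library from Rbp4cre::tdTomato mice (wild-type), 1 from Tbr1f/+::Rbp4cre::tdTomato mice (heterozygous) and 1 from Tbr1f/f::Rbp4cre::tdTomato mice (homozygous). All 3 libraries thus share the Cre driver and the reporter. *Rbp4-cre* labels layer 5 projection neurons, the floxed allele loses exons 2 and 3 of *Tbr1* in cells with Cre, and the number of mice pooled for a library is not given in the sources used here.

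Excitatory projection neurons of the cortex release glutamate. During their differentiation bHLH transcription factors of the NeuroD family are switched on, and after birth they build dendrites and spines, so that genes of the postsynaptic density, of calmodulin signaling and of the cytoskeleton are prominent among their mRNAs. Inhibitory interneurons, astrocytes, microglia and vascular cells of the same tissue each express their own markers. Long noncoding RNAs such as *Malat1*, *Meg3* and *Xist* stay in the nucleus, whereas mRNAs of the cytoplasm and mitochondrial transcripts lie outside it.

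Retained cells carried *Neurod6*, *Nrgn*, *Neurod2* and *Mef2c* above the level of the other cells, by a mean of 0.53 to 1.29 on the log2 scale over the 3 libraries, although *Mef2c* showed no detectable difference in the heterozygous library. They differed far more in what they lacked. *Malat1*, the most abundant nuclear noncoding RNA, was lower by a mean log2 ratio of −5.26 ± 0.33 (SD, n = 3 libraries), and *Meg3*, *Snhg11* and *Xist* were lower by similar amounts. Among listed genes past a minimum level, all markers of microglia, blood vessels, blood and cycling cells were at least 1 lower on the log2 scale in each library. So were 6 of 9 inhibitory markers and 6 of 7 immediate early genes, beside 12.9% of all genes. Many of these genes passed that minimum only through the other cells. A part of the other cells, named excitatory neuron-like below, was low in *Malat1* and *Meg3* too. Against that part alone 0 of 4352 genes were higher in retained cells and 22 lower. The authors used *Nrgn* to choose the neuronal clusters and set cells with low *Neurod6* and *Nrgn* apart, so the level of these genes is no independent check of the name neuronal. The name was not borne out by *Meg3* and *Snhg11*, which are abundant in neurons and were low, nor by the glial gene *Fabp7*, which stood at 4775 to 5713 CPM in retained cells and at 3598 to 3838 CPM in the other cells. Of the 9 astrocyte and radial glia markers past the minimum, however, 4 were lower in each library and 0 higher. Barcodes outside the filtered table held *Fabp7* near the level of retained cells, as given below. Whether each retained barcode holds an intact cell was not tested, and values of retained cells below are values of these barcodes.

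Levels are given as CPM, the UMIs of a gene summed over the cells of 1 group and library per 1000000 UMIs of that group. Ratios were taken within a library, never between genotypes. Cells were sorted into groups by clustering of these same counts, *Nrgn* and *Cnih2* were among the markers that the authors used for the neuronal clusters, and each genotype has 1 library. The values are therefore a description without a test or p-value. The 95% intervals (exact conditional binomial for a ratio, Poisson for a sum, Clopper-Pearson for a share) cover counting error only, and an SD over the 3 libraries holds any difference between genotypes too.

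The 1778 wild-type, 5357 heterozygous and 3935 homozygous retained cells held 3670646, 10418228 and 6074494 UMIs, with a median per cell of 1901, 1743 and 1375. The 2873, 1398 and 1182 other cells of the same libraries had medians of 2489, 2541.5 and 1752.5 UMIs. The authors had filtered the neuronal cells a second time on UMIs and genes, and no retained cell reached 4000 UMIs, whereas 590, 450 and 137 other cells did. At an equal 1000 UMIs per cell, retained cells showed a median of 555, 559 and 565 genes, against 637, 585.5 and 613 in the other cells. A barcode found in another library as well was carried by 35, 82 and 59 retained cells, and with all such cells left out 1 gene was higher and 673 were lower by the limits given below. The heterozygous library stood apart in its other cells, which hold many cells rich in the excitatory markers, so values with and without these cells are given below.

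*Neurod6*, a bHLH transcription factor of projection neurons (ENSMUSG00000037984, chromosome 6 of GRCm38, 55677822 to 55681263, minus strand), stood at 201, 246 and 240 CPM in the retained cells of the wild-type, heterozygous and homozygous libraries, the order of all values that follow. The other cells of these libraries had 62.3, 147 and 89.1 CPM. All 3 retained values lay above all 3 values of the other cells, with log2 ratios of 1.69 (95% interval 1.53 to 1.85), 0.74 (0.62 to 0.87) and 1.43 (1.23 to 1.63). *Nrgn*, which encodes neurogranin, a postsynaptic protein that binds calmodulin (ENSMUSG00000053310, chromosome 9, 37544492 to 37552904, minus strand), was the most abundant of the 4 markers at 1692, 2062 and 2722 CPM, against 454, 1607 and 1068 CPM. Its log2 ratios were 1.90 (1.84 to 1.96), 0.36 (0.32 to 0.40) and 1.35 (1.29 to 1.41). The groups did not overlap, but the heterozygous other cells came close to the wild-type retained cells. The share of all genes without overlap was not counted, and overlap is judged across libraries that differ in genotype. Overlap or a lack of it, here and below, therefore only describes the gene named.

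*Neurod2*, another bHLH factor of the family (ENSMUSG00000038255, chromosome 11, 98325415 to 98329648, minus strand), was rare, at 41.1, 39.5 and 44.0 CPM in retained cells and at 19.5, 31.7 and 18.8 CPM in the other cells. The log2 ratios were 1.08 (0.75 to 1.40), 0.32 (0.04 to 0.61) and 1.23 (0.79 to 1.69), the widest intervals of the 4 markers, since they rest on 151, 412 and 267 UMIs of the retained cells. *Mef2c*, a transcription factor of activity-dependent synapse development that microglia and endothelial cells express too (ENSMUSG00000005583, chromosome 13, 83504034 to 83667080, plus strand), stood at 682, 704 and 803 CPM against 336, 690 and 551 CPM. Its log2 ratios were 1.02 (0.95 to 1.10), 0.03 (−0.03 to 0.09) and 0.54 (0.46 to 0.63), so that no difference was detectable in heterozygous cells. For *Mef2c* the groups overlapped across libraries.

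**Figure D1:**
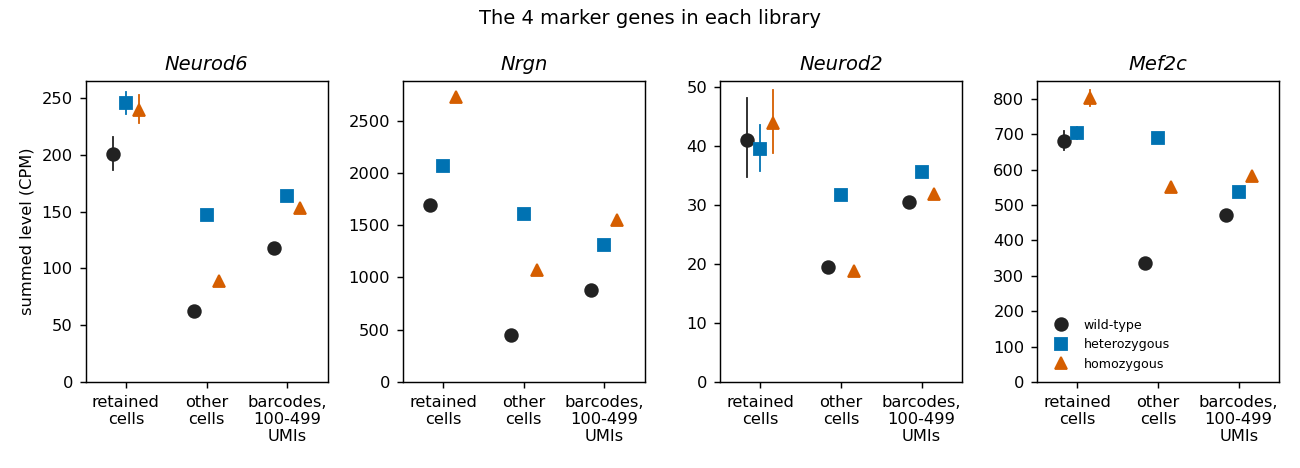
Summed level in CPM of *Neurod6*, *Nrgn*, *Neurod2* and *Mef2c* in each library (1 symbol per library) for retained cells, other filtered cells and barcodes of 100 or more but under 500 UMIs outside the filtered table, with Poisson 95% intervals as bars on the retained cells. Within a library the retained cells are highest for each gene, and the barcodes lie between retained and other cells for *Neurod6* and *Neurod2* in each library and for *Nrgn* and *Mef2c* in the wild-type and homozygous libraries.

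The same genes were also measured in low-count barcodes, those of 100 or more but under 500 UMIs outside the filtered table, which are taken as a measure of free RNA in the suspension, although small or damaged cells may be among them. There *Neurod6* stood at 118, 164 and 154 CPM and *Nrgn* at 877, 1308 and 1553 CPM. Retained cells exceeded these barcodes by log2 ratios of 0.76, 0.58 and 0.64 for *Neurod6* and of 0.95, 0.66 and 0.81 for *Nrgn*. The plot of the 4 markers shows that the barcodes outside the table came nearer to the retained cells than the wild-type and homozygous other cells did.

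Of the 5183 genes that averaged 20 CPM or more over both groups, 1 was higher in retained cells by a log2 ratio of at least 1 in each library (0.0193%). It was *Tcerg1l*, at 30.2, 38.0 and 28.3 CPM against 10.3, 18.8 and 12.8 CPM, a mean log2 ratio of 1.24 ± 0.28. The heterozygous library set this count, since 54 of 5288 genes met the same limit in the wild-type and homozygous libraries. In the opposite direction 669 genes (12.9%) were lower by at least 1 in each library. The minimum is a mean over both groups. A gene near 0 in retained cells therefore enters only through the other cells and is then mostly called lower. The median log2 ratio of all 5183 genes was −0.40, −0.18 and −0.28, a mean of −0.29, so most genes were below 0 at this scaling and minimum. At a minimum of 100 CPM the median was 0.04, 0.07 and 0.07, and without a minimum −0.79, −0.49 and −0.68. Of the 670 calls 0.149% were higher. With edgeR's TMM factors the mean of the medians was 0.32 with 69 genes higher and 335 lower (17.1% of calls higher), and with DESeq2 size factors it was 0.37 with 94 higher and 315 lower (23.0%).

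Beyond the markers, 14 more genes led by their lowest ratio at 100 CPM or more in retained cells, each with a heterozygous ratio under the limit. *Nefl*, the light chain of neurofilaments, stood at 144, 214 and 206 CPM in retained cells against 45.6, 121 and 90.2 CPM, with log2 ratios of 1.65, 0.82 and 1.19. *Fxyd7*, a regulator of the sodium pump in the brain, stood at 408, 421 and 455 CPM against 120, 264 and 236 CPM, with ratios of 1.77, 0.67 and 0.95. *Cnih2*, an auxiliary subunit of AMPA receptors that the authors used to choose the neuronal clusters, stood at 859, 1098 and 1097 CPM against 307, 722 and 517 CPM, with ratios of 1.48, 0.61 and 1.08. For each of these 3 genes the retained values of all libraries lay above those of the other cells, which is no finding since they were picked by their ratios. *Trnp1*, *Kifc2*, *Rprm*, *Rprml*, *Palm*, *Samd14*, *Bend6*, *Lrrc73*, *Akap12*, *Sult4a1* and *Lin7b* complete the group with mean log2 ratios of 0.82 for *Samd14* to 1.21 for *Rprml*. *Lin7b* encodes a scaffold protein of synapses, *Kifc2* a kinesin and *Palm* a lipid-anchored protein of the plasma membrane.

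The smaller ratios of the heterozygous library went with the makeup of its other cells. Clustering split the 5453 other cells into 21 clusters, and 877 of them fell into clusters named excitatory neuron-like from the fixed markers, with 193, 456 and 228 cells per library. These are 6.72%, 32.6% and 19.3% of the other cells. Counted with an unnamed cluster, 3 clusters reached at least 75% of the summed excitatory markers of retained cells, and these hold 1479 other cells (314, 760 and 405). The largest classes after them were inhibitory neuron-like with 1098 cells, astrocyte and radial glia-like with 867 and endothelial-like with 588. Against the excitatory neuron-like cells alone, 0 of 4352 genes were higher in retained cells (0%) and 22 were lower (0.506%), among them the cycling genes *Ube2c*, *Cks2* and *Hmgb2*. In that comparison *Neurod6* had log2 ratios of −0.05, 0.17 and 0.45, and *Nrgn* of −0.11, −0.37 and 0.09. Why these cells are outside the neuronal list was not tested. Of the 3 clusters, 1 had a median of 4267 UMIs, above every retained cell. The other excitatory neuron-like cluster, of 462 cells (124, 169 and 169), had cycling markers at 1281 CPM, against 124 CPM in the first. Whether it accounts for the cycling genes that were lower in retained cells was not tested. The unnamed one, of 602 cells (121, 304 and 177), carried microglial markers too, at 2756 CPM. *Crybb1* and *Aif1* were among its 10 leading genes.

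With these 3 clusters left out, 133 of 5470 genes (2.43%) were higher in retained cells in each library and 1285 (23.5%) were lower. This comparison was chosen after the values had been seen, and the clusters were left out by the level of excitatory markers, so the markers themselves had to move up. *Neurod6* then reached a mean log2 ratio of 1.91 ± 0.10, *Nrgn* 2.04 ± 0.34 and *Neurod2* 1.40. *Mef2c*, at 1.17, 0.41 and 0.74, was still under the limit in the heterozygous and homozygous libraries. *Nefl* was first by its lowest ratio among the genes of at least 100 CPM, with log2 ratios of 1.95, 2.11 and 2.02. *Nefl* was among the 10 leading genes of each of these 3 clusters, and *Camk2a* among those of the cluster with the highest median UMIs. The rise of both genes therefore follows in part from leaving the clusters out. *Hpca*, which encodes the neuronal calcium sensor hippocalcin, had 1.62, 1.75 and 1.83. *Psd*, a guanine nucleotide exchange factor named for pleckstrin and Sec7 domains, had 1.56, 1.64 and 1.57, and *Camk2a*, the alpha subunit of the calcium/calmodulin-dependent kinase of excitatory synapses, 1.64, 1.5 and 1.70. *Fezf2*, a transcription factor that specifies subcortically projecting neurons of layer 5, stood at 43.0, 47.8 and 52.0 CPM against 15.3, 9.10 and 12.7 CPM, with log2 ratios of 1.49, 2.39 and 2.04. The plot of 20 of these genes shows all 3 libraries past the limit.

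**Figure D2:**
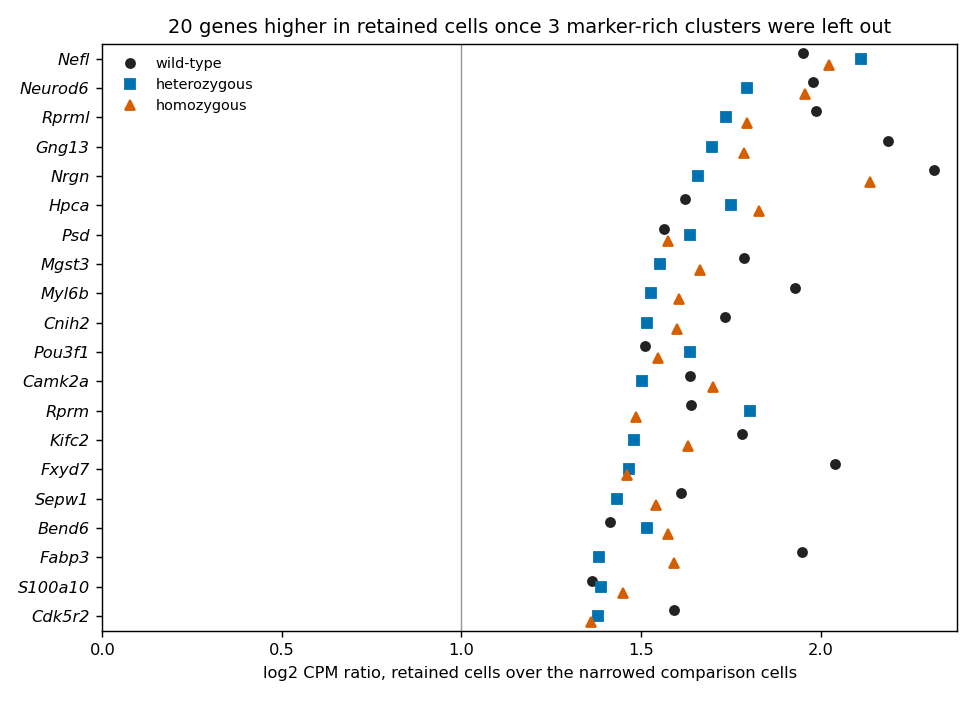
Log2 ratio of CPM, retained cells over the other cells without the 3 clusters rich in excitatory markers, for the first 20 genes of 100 CPM or more by their lowest ratio, 1 symbol per library, with a grey line at 1. All points lie to the right of the line because the genes were chosen by it, with *Nefl* at 1.95 to 2.11.

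Excitatory neuron markers summed to 2721, 3164 and 3912 CPM in retained cells and to 928, 2568 and 1790 CPM in the other cells, a log2 ratio of 1.55, 0.30 and 1.13. In retained cells *Nrgn*, a gene used to choose the cells, gave 1692, 2062 and 2722 CPM of these sums. The 4 markers together gave 2616, 3051 and 3809 CPM of them. The ratios are therefore no independent check of the name neuronal. Of the 9 genes of this list 7 passed the minimum, 0 were higher in each library and 0 lower, beside 0.0193% and 12.9% of all genes. *Slc17a7*, the vesicular glutamate transporter VGLUT1, stood at 38.4, 46.9 and 38.5 CPM against 13.9, 35.7 and 21.8 CPM. *Tbr1*, the floxed gene, was near the minimum at 27.5, 30.7 and 22.4 CPM against 20, 23.6 and 15 CPM. *Rbp4*, whose regulatory sequence drives the Cre, was below it at 12.3, 14.7 and 14.3 CPM in retained cells, against 9.40, 31.0 and 35.3 CPM in the other cells. For *Rbp4* retained cells were below the other cells in the heterozygous and homozygous libraries, and in the wild-type library the intervals (8.94 to 16.4 and 7.47 to 11.7 CPM) overlapped.

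Of 21 genes of the postsynaptic density 14 passed the minimum and 0 were called in either direction, beside 0.0193% of all genes higher and 12.9% lower. They summed to 2983, 3414 and 4114 CPM in retained cells against 1261, 2844 and 2080 CPM, log2 ratios of 1.24, 0.26 and 0.98, which rest in large part on *Nrgn*, a gene used to choose the cells. Without *Nrgn* the ratios were 0.68, 0.13 and 0.46. *Dlg4*, the scaffold protein PSD-95, stood at 122, 134 and 144 CPM against 47.2, 127 and 67.6 CPM, so the heterozygous other cells lay above the wild-type retained cells. With the 3 marker-rich clusters left out, 3 of 14 were higher in each library, beside 2.43% of all genes, namely *Dlg4*, *Camk2a* and *Nrgn*. The rise of *Nrgn* follows from how the clusters were chosen. *Dlg4* and *Camk2a* were among the 10 leading genes of a cluster left out, so their rise follows in part from that choice too. Presynaptic genes of vesicle release had summed log2 ratios of 0.85, 0.33 and 0.51 over 23 genes. Of these 21 were past the minimum and 0 were called, beside the same 0.0193% and 12.9% of all genes. *Snap25*, a SNARE protein of the presynaptic membrane, stood at 162, 241 and 227 CPM against 87.1, 184 and 162 CPM.

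Calmodulin and calcium signaling genes summed to 11407, 14544 and 15485 CPM against 5764, 11586 and 9178 CPM, with log2 ratios of 0.98, 0.33 and 0.75 (0.87, 0.32 and 0.65 without *Nrgn*), and 1 of 19, *Camk2d*, was lower in each library, beside 12.9% of all genes. After the 3 clusters had been left out, 8 of the 19 were higher, beside 2.43% of all genes, in a comparison chosen after the values had been seen. These were *Nrgn*, whose rise follows from how the clusters were chosen, and *Gap43*, *Camk2a*, *Camk4*, *Camkv*, *Hpca*, *Hpcal4* and *Ncs1*. *Camk2a* and *Camk4* were among the 10 leading genes of a cluster left out, so their rise follows in part from that choice too. The count is therefore no independent support. *Gap43*, a growth cone protein that binds calmodulin, was abundant in retained cells at 2114, 2178 and 2320 CPM, against 786, 1531 and 1146 CPM. The 28 genes of microtubules and axonal growth reached 31973, 32259 and 32194 CPM in retained cells against 21420, 25196 and 21447 CPM. *Stmn2*, a microtubule regulator of growing axons, stood at 3591, 2895 and 2780 CPM against 1691, 2015 and 1569 CPM, without overlap. *Tubb3*, the neuronal tubulin, differed less, at 1326, 1491 and 1521 CPM against 1021, 1206 and 1007 CPM.

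Genes of layers 5 and 6 were described by a list of 14, of which 10 passed the minimum. Of these 0 were higher and *Nfib* was lower, beside 0.0193% and 12.9% of all genes. Summed they stood at 1465, 1229 and 1188 CPM against 1211, 1084 and 1028 CPM, log2 ratios of 0.27, 0.18 and 0.21. *Fezf2* led the list with 43.0, 47.8 and 52.0 CPM against 18.0, 26.6 and 19.2 CPM, and its retained values lay above all values of the other cells. *Crym*, a thyroid hormone-binding protein found in deep-layer neurons, stood at 72.7, 64.9 and 57.6 CPM against 28.2, 35.2 and 29.7 CPM. *Pcp4*, a calmodulin-binding protein, stood at 994, 807 and 750 CPM against 431, 585 and 509 CPM. *Bcl11b*, which encodes the CTIP2 factor of subcerebral neurons and is expressed in striatal and inhibitory neurons too, gave log2 ratios of 0.03 (−0.19 to 0.23), −0.17 (−0.37 to 0.04) and 0.19 (−0.06 to 0.45), and a difference was not detectable. When the 3 clusters were left out, 3 of 11 were higher in each library, *Fezf2*, *Ldb2* and *Crym*, beside 2.43% of all genes. These clusters were left out by their excitatory markers after the values had been seen, so the count is no independent support.

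Of 26 neuronal transcription factors past the minimum 0 were higher and 2, *Mef2a* and *Nfib*, were lower, beside 12.9% of all genes. *Bhlhe22*, a bHLH repressor of projection neurons, stood at 63.5, 97.0 and 98.0 CPM against 18.1, 75.3 and 39.1 CPM. *Sox11* and *Sox4*, factors of newly born neurons, had mean log2 ratios of −1.17 ± 0.69 and −1.01 ± 0.57. Upper-layer genes (7 past the minimum), ion channels (7), GABA-A receptor subunits (3) and housekeeping genes (11) had 0 called, RNA-binding proteins 1 of 13 lower and the WNT pathway 3 of 10 lower, beside the same 12.9%. The direction of these sums depended on the scaling, although not in every library. For ion channels it stayed negative in the heterozygous and homozygous libraries with TMM and DESeq2 factors. The glutamate receptor list, with 1 of 6 lower, summed to 1119, 1333 and 1344 CPM in retained cells against 787, 1151 and 1013 CPM. This direction rests on *Cnih2*, a gene used to choose the cells, and without it the list stood at 260, 235 and 247 CPM against 479, 429 and 495 CPM. *Gria2*, the subunit that sets the calcium permeability of AMPA receptors, was the lower one at 41.1, 35.5 and 47.6 CPM against 226, 117 and 162 CPM, a mean log2 ratio of −1.98 ± 0.41.

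**Figure D3:**
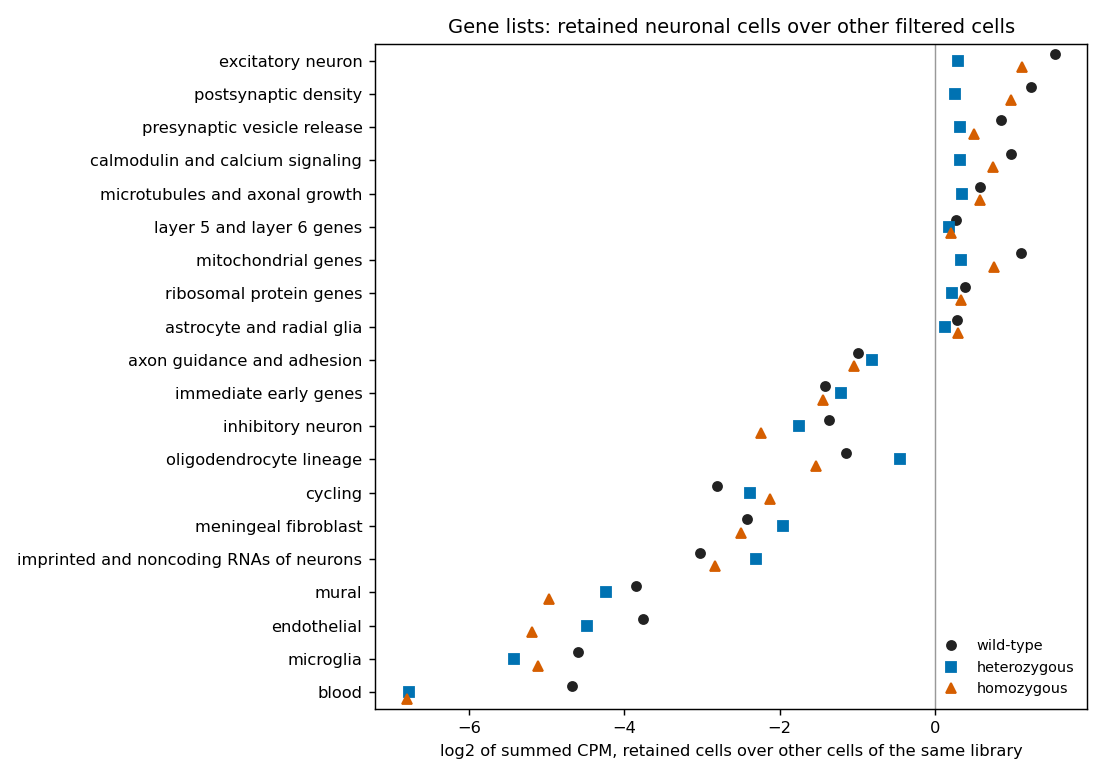
Log2 ratio of the summed CPM of 20 gene lists, retained cells over other cells of the same library, 1 symbol per library, with a grey line at 0. Excitatory, synaptic, calmodulin, microtubule and mitochondrial lists lie to the right of 0, and the lists of mural, endothelial, microglial and blood markers lie furthest to the left.

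Noncoding RNAs were among the largest differences. *Malat1* (ENSMUSG00000092341, chromosome 19, 5795690 to 5802672, minus strand), which is retained in nuclear speckles, stood at 1130, 348 and 594 CPM in retained cells and at 33113, 14926 and 26359 CPM in the other cells. The log2 ratios were −4.87 (−4.92 to −4.83), −5.42 (−5.47 to −5.37) and −5.47 (−5.52 to −5.42), with the highest retained value far below the lowest value of the other cells. *Meg3*, an imprinted noncoding RNA of neurons (ENSMUSG00000021268, chromosome 12, 109541001 to 109571726, plus strand), stood at 49.6, 28.2 and 28.0 CPM against 1470, 1100 and 1553 CPM. *Snhg11*, a host of small nucleolar RNAs that marks neurons and that the annotation types as protein coding, had 5.45, 5.28 and 4.94 CPM against 285, 246 and 324 CPM. *Xist*, which coats the inactive X chromosome, had 18.8, 8.06 and 5.93 CPM against 1399, 828 and 752 CPM. Each of these 4 genes was lower in retained cells within each library, and their mean log2 ratios spanned −6.63 for *Xist* to −5.26 for *Malat1*.

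Of the 9 genes of this list past the minimum these 4 were lower, beside 12.9% of all genes, and 5 imprinted genes were not called. *Peg3* was the lowest of them with log2 ratios of −1.03, −0.95 and −1.41, and *Nnat* and *Gnas* had mean log2 ratios of 0.17 and 0.20. *Snrpn* stood at 983, 1353 and 1396 CPM in retained cells against 444, 980 and 739 CPM, and *Ndn* at 240, 153 and 283 CPM against 187, 129 and 256 CPM. Over all genes, 10 of 47 long noncoding genes were lower (21.3%), beside 657 of 5105 protein-coding genes (12.9%), by the annotation's types. Several of the 10, such as *Xist* at a mean of 10.9 CPM in retained cells, passed the minimum only through the other cells. The shares are therefore no support for a difference by type. *Kcnq1ot1*, *Gm26699*, *Dlx6os1*, *Gm14964*, *Gm3764*, *C130071C03Rik* and *Lockd* were the 7 lower ones not yet named. *Kcnq1ot1*, which silences imprinted neighbors from within the nucleus, had 1.36, 1.15 and 1.15 CPM against 64.9, 29.9 and 39.8 CPM. Genes with long transcripts were lower more often than genes with short ones, at 7.57%, 12.2%, 12.1% and 19.8% in 4 bins of equal size from the shortest to the longest transcripts. The shortest bin had a median log2 ratio of −0.03, 0.03 and 0.00 in the 3 libraries, and the longest −0.65, −0.43 and −0.50.

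The low level of *Malat1* was seen cell by cell. With each cell thinned to 1000 UMIs, 2.92% (2.19 to 3.82), 0.616% (0.424 to 0.864) and 1.42% (1.08 to 1.84) of retained cells kept 5 or more *Malat1* UMIs. In inhibitory neuron-like cells the share was 97.4%, 91.2% and 92.0%, and in astrocyte and radial glia-like cells 98.2%, 82.6% and 90.2%. Excitatory neuron-like cells outside the list were nearer to the retained cells, at 8.29%, 1.75% and 4.39%. The median retained cell had 1, 0 and 0 *Malat1* UMIs of 1000, and the median inhibitory neuron-like cell 32, 27 and 26. *Meg3* was counted at least once in 4.33%, 2.45% and 2.34% of retained cells, against 72.1%, 78.6% and 72.4% of inhibitory neuron-like cells. It was also rare in excitatory neuron-like cells, at 6.22%, 3.07% and 2.63%, and in astrocyte and radial glia-like cells, at 9.37%, 6.52% and 4.60%.

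**Figure D4:**
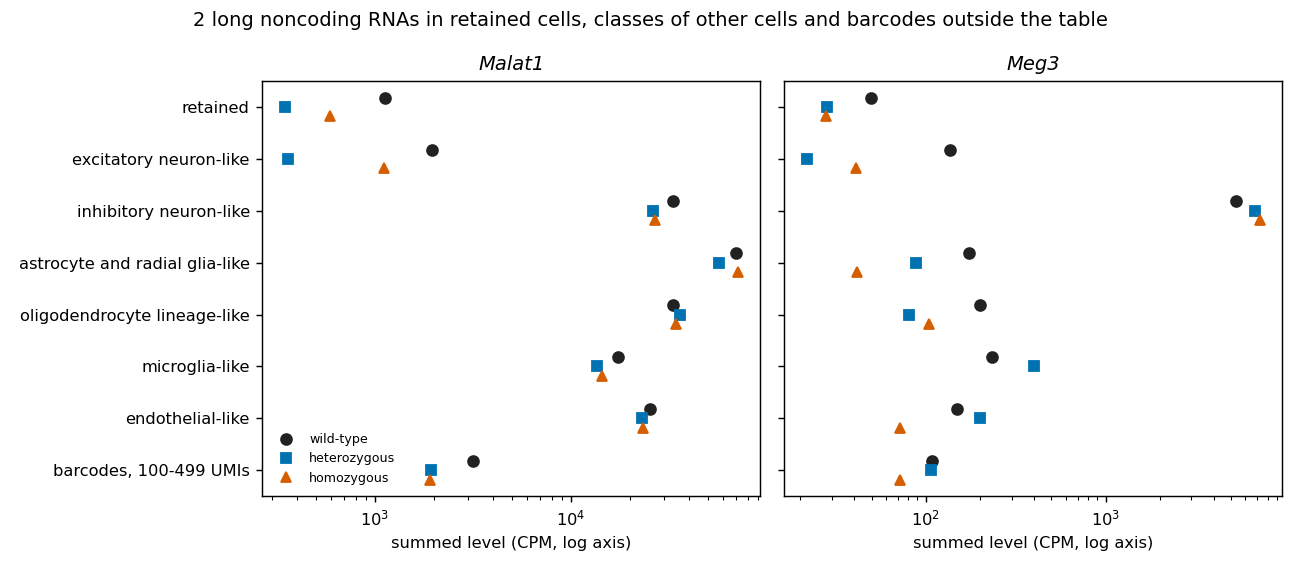
Summed level in CPM (log axis) of *Malat1* and *Meg3* in retained cells, 6 classes of other cells and low-count barcodes, 1 symbol per library. Retained and excitatory neuron-like cells have the lowest *Malat1*, below the low-count barcodes in each library, and homozygous microglia-like cells have no *Meg3* point because their count was 0.

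Immediate early genes, which are switched on within minutes of stimulation or of stress during dissociation, were low in retained cells. Of the 13 on the list 7 passed the minimum, and 6 of the 7 were lower in each library, beside 12.9% of all genes. A gene near 0 in retained cells, such as *Fos*, passed it only through the other cells, so the count is no support. *Fos* stood at 5.99, 6.24 and 5.43 CPM against 138, 163 and 146 CPM, a mean log2 ratio of −4.66 ± 0.12. *Junb*, *Ier2*, *Dusp1* and *Btg2* had mean log2 ratios between −3.68 and −3.14, *Jun* had −2.26, and *Jund*, which was not called, had −0.35. Summed, the list stood at 370, 456 and 453 CPM in retained cells, at 384, 511 and 490 CPM in low-count barcodes and at 986, 1052 and 1228 CPM in the other cells. Of 13 genes of axon guidance and adhesion past the minimum 4 were lower, *Pcdh9*, *Robo2*, *Nrxn3* and *Nrp1*, and 9 were not called, beside 12.9% of all genes. The sum of the list had log2 ratios of −0.98, −0.81 and −1.04. *Nrp1*, a receptor for semaphorins that endothelial cells express as well, stood at 7.90, 5.09 and 3.46 CPM against 70.0, 40.3 and 59.0 CPM.

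Mitochondrial transcripts ran the other way. The 13 mitochondrial genes summed to 106837, 157273 and 128103 CPM in retained cells against 49622, 124833 and 75541 CPM, log2 ratios of 1.11, 0.33 and 0.76. Of the 13, 0 were called, beside 0.0193% of all genes higher and 12.9% lower. Per cell, the median share of mitochondrial UMIs was 10.4%, 15.4% and 12.5% in retained cells and 4.45%, 13.0% and 7.95% in the other cells. *mt-Co3*, *mt-Atp6*, *mt-Nd1*, *mt-Co1* and *mt-Cytb* were the 5 most abundant genes of retained cells, followed by *Rpl41*, *Tmsb10*, *Tuba1a*, *mt-Nd4* and *Ftl1*. The 82 ribosomal protein genes had summed log2 ratios of 0.39, 0.22 and 0.33.

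Markers of other cell types were low in retained cells, with an exception among glial genes. All 9 microglial markers were lower in each library, and summed they stood at 65.7, 41.0 and 44.4 CPM in retained cells, 1591, 1755 and 1532 CPM in the other cells and 198, 290 and 173 CPM in low-count barcodes. All endothelial (6), mural (4), meningeal (5), blood (4) and cycling (7) markers past the minimum were lower as well, beside 12.9% of all genes and under the same limit. The mean summed log2 ratios of these lists were −4.48, −4.35, −2.29, −6.09 and −2.44. *Cldn5*, the tight junction protein of brain endothelium, stood at 57.8, 10.8 and 23.0 CPM against 860, 349 and 996 CPM. Of 9 inhibitory markers past the minimum 6 were lower, beside 12.9% of all genes, and the list summed to 600, 537 and 661 CPM against 1543, 1809 and 3125 CPM. *Npy*, a neuropeptide of interneurons, still stood at 256, 280 and 401 CPM in retained cells, and at 240, 322 and 329 CPM in low-count barcodes. Microglial, endothelial, mural and blood sums were thus lower in retained cells than in those barcodes, while *Npy* was near their level.

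Astrocyte and radial glia markers split. Of 9 past the minimum 0 were higher, 4 lower and 5 not called, beside 0.0193% of all genes higher and 12.9% lower. Summed, the list stood at 8855, 7740 and 8681 CPM in retained cells against 7279, 7077 and 7026 CPM. *Fabp7*, the brain lipid-binding protein of radial glia, stood at 5713, 4775 and 5647 CPM in retained cells against 3598, 3838 and 3723 CPM, above the other cells in each library. *Aldoc*, an aldolase of astrocytes, had 602, 670 and 647 CPM against 414, 518 and 406 CPM, and *Mt3*, a metallothionein of the brain, 1748, 1579 and 1671 CPM against 974, 1271 and 1067 CPM. In contrast *Slc1a3*, the glutamate transporter GLAST, was lower at 147, 116 and 127 CPM against 648, 334 and 472 CPM, and *Gja1*, *Aqp4* and *Mfge8* had mean log2 ratios of −1.61, −1.81 and −1.65. In low-count barcodes *Fabp7* stood at 5758, 5117 and 5861 CPM and *Slc1a3* at 110, 116 and 105 CPM, so for both genes the retained cells were close to these barcodes. Whether free RNA accounts for the level of *Fabp7* was not tested.

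Retained cells were also set against single classes of the other cells. Against inhibitory neuron-like cells, 80 of 5296 genes were higher (1.51%) and 987 lower (18.6%). *Nrgn* was higher there with log2 ratios of 1.83, 1.58 and 2.08, and so was *Fabp7* with 1.47, 1.91 and 2.11, whereas *Neurod6* had 0.94, 1.37 and 1.19 and was not called. Against astrocyte and radial glia-like cells, 206 of 5217 genes were higher (3.95%) and 1227 lower (23.5%), with *Neurod6* at 2.02, 1.64 and 1.49 and *Stmn2* at 1.82, 1.77 and 1.65. Endothelial-like cells gave 588 of 5401 genes higher (10.9%) and 1471 lower (27.2%), and microglia-like cells 467 of 5187 higher (9%) and 1193 lower (23%). In both of these comparisons *Neurod6* and *Nrgn* were higher in each library. *Mef2c* was not higher than in microglia-like cells, with log2 ratios of −0.20, −0.27 and −0.12.

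The atypical neuronal cells carried striatal genes such as *Ppp1r1b* and *Rxrg* at higher levels than retained cells. The authors described the cells set apart by reduced excitatory markers and by high housekeeping genes, so neither is a finding here. *Nrgn*, however, stood at 2354 CPM in heterozygous atypical cells and at 2062 CPM in heterozygous retained cells. Against them 25 of 4277 genes were higher in retained cells (0.585%) and 34 were lower (0.795%). Among the higher genes, *Tppp3*, a tubulin polymerization protein, stood at 124, 118 and 128 CPM against 32.5, 23.1 and 25.5 CPM, and *Cck*, the neuropeptide cholecystokinin, had log2 ratios of 1.54, 1.45 and 1.97. Among the lower genes, *Ppp1r1b*, which encodes DARPP-32 of striatal projection neurons, stood at 12, 14.9 and 23.0 CPM against 170, 240 and 290 CPM. *Rxrg*, a retinoid receptor of striatal neurons, stood at 5.18, 4.9 and 8.56 CPM against 82.9, 208 and 149 CPM. *Malat1* was lower in retained cells here too, at 1130, 348 and 594 CPM against 13185, 3505 and 2663 CPM.

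The profile of the retained cells was close to that of barcodes outside the filtered table. Of 4275 genes past the minimum 0 were at least 1 on the log2 scale higher in retained cells than in low-count barcodes in each library (0%), and 30 were lower (0.702%). These 30 are vascular genes such as *Vtn*, *Rgs5* and *Cldn5*, microglial genes such as *C1qa*, *C1qb* and *Tyrobp*, hemoglobins, *Malat1*, *Meg3* and *Xist*, and a few more such as *Ptgds*, *Bsg* and *Mbp*. The median absolute log2 ratio over 5177 genes was 0.19, 0.16 and 0.15 between retained cells and these barcodes, against 0.57, 0.25 and 0.45 between the other cells and the barcodes. Over those of the 5183 genes with at least 3 UMIs in both sums, it was 0.22, 0.15 and 0.23 between retained and excitatory neuron-like cells, 0.29, 0.36 and 0.28 for atypical cells and 0.59, 0.59 and 0.63 for inhibitory neuron-like cells. Such medians grow with counting error, and the sums differ in size. The barcodes held 14981358, 8516230 and 13693543 UMIs, excitatory neuron-like cells 501420, 1646844 and 393102, and atypical cells 675832, 216259 and 745153. The medians therefore do not rank the barcodes against these classes by closeness to retained cells. The 4 markers together stood at 1498, 2044 and 2319 CPM in the low-count barcodes, which is 57.3%, 67.0% and 60.9% of the 2616, 3051 and 3809 CPM of retained cells, and at 1709, 2329 and 2664 CPM in barcodes of 500 to under 1000 UMIs.

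Within the retained cells, depth and marker level went together. Cells of 1500 to under 2000 UMIs had the 4 markers at 2459, 2819 and 3824 CPM, and cells of 3000 to under 4000 UMIs at 3095, 3516 and 5326 CPM, higher in each library. *Malat1* had no such order over the bins, at 1068, 331 and 727 CPM in the first of these, 1254, 333 and 566 CPM at 2000 to under 3000 UMIs and 946, 317 and 513 CPM in the last. Barcodes of 1000 to under 4000 UMIs that are not in the filtered table, 5942, 1937 and 496 in number, had 1823, 2349 and 2785 CPM of the 4 markers and 8178, 2123 and 1958 CPM of *Malat1*. They were thus below the retained cells for the markers and above them for *Malat1* in each library. Depth was not matched, since retained cells began at 1533, 1196 and 1040 UMIs. The markers rose with depth, so their contrast is not one at equal depth.

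**Figure D5:**
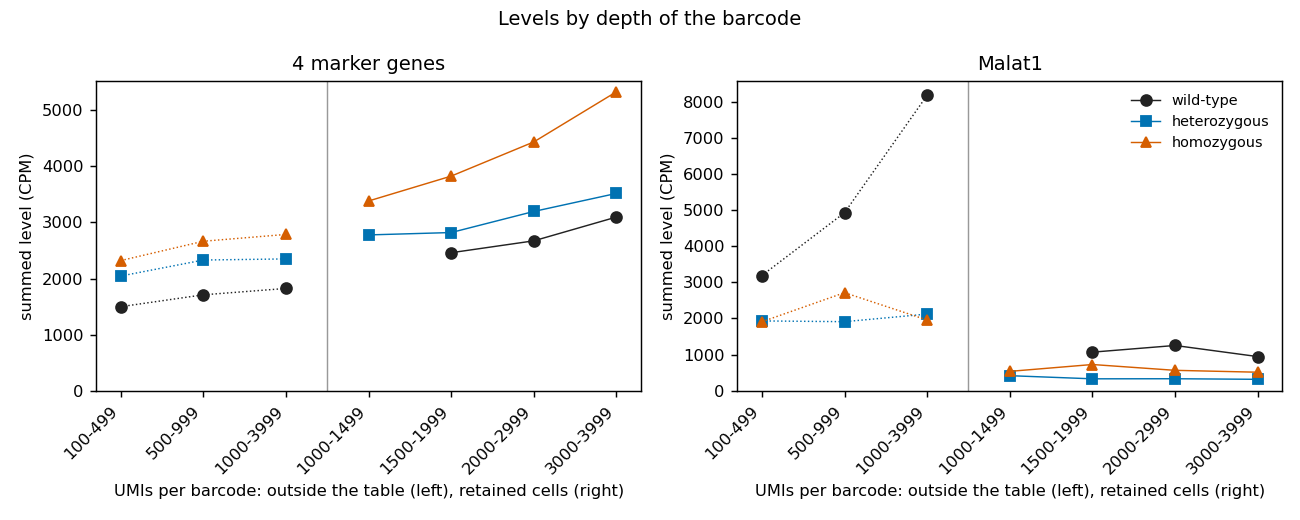
Summed level in CPM of the 4 marker genes and of *Malat1* by the UMIs of the barcode, for barcodes outside the filtered table (dotted) and for retained cells (solid), 1 symbol per library. Within each library the 4 markers are higher in retained cells than outside the table and *Malat1* is lower, and the wild-type library has no retained cell under 1500 UMIs.

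Single retained cells showed the markers unevenly. With each cell thinned to 1000 UMIs, *Nrgn* was counted in 76.7% (74.7 to 78.7), 80.7% (79.6 to 81.7) and 88.2% (87.1 to 89.2) of retained cells, and in 26.3%, 39.8% and 25.5% of endothelial-like cells, which should lack it. *Neurod6* was counted in 17.4% (15.7 to 19.3), 20.9% (19.8 to 22.0) and 20.9% (19.6 to 22.2) of retained cells and in 5.33%, 7.41% and 3.73% of endothelial-like cells. Both genes were thus above that background, which is not a clean one. The endothelial-like class joins a cluster of 474 cells, with excitatory markers at 494 CPM, and one of 114 cells with 1759 CPM. *Neurod2* reached 4.39%, 3.57% and 4.47%, and its intervals in the wild-type (3.48 to 5.45) and heterozygous libraries (3.08 to 4.10) overlapped those of endothelial-like cells (0.693 to 4.05 and 0.0234 to 5.05), although by summed level *Neurod2* was higher than in endothelial-like cells, with log2 ratios of 2.06, 1.57 and 3.24. *Mef2c* was counted in 46.3%, 46.8% and 49.8% of retained cells, in 22.3%, 20.4% and 17.4% of endothelial-like cells and in 56.1%, 53.4% and 42.5% of microglia-like cells. Before thinning, *Nrgn* was counted in 91.3%, 91.5% and 93.8% and *Neurod6* in 31.7%, 34.6% and 28.9% of retained cells, at the median depths of 1901, 1743 and 1375 UMIs, and in endothelial-like cells, at medians of 2862, 2431 and 1909 UMIs, *Nrgn* in 53.3%, 56.5% and 41.0%. At 1000 UMIs, 11%, 9.37% and 5.57% of retained cells had no UMI of any of the 4 markers, against 50.0%, 25.8% and 32.3% of the other cells.

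Over the 1237 genes of 100 CPM or more, the median ratio of variance to mean at 1000 UMIs was 1.02 in each library, where independent counting of 1 profile gives a ratio of about 1. It was above 1.5 for 14, 16 and 15 genes, beside 22, 19 and 19 genes in excitatory neuron-like cells, 32, 38 and 16 in atypical cells, 33, 61 and 61 in inhibitory neuron-like cells and 31, 54 and 34 in astrocyte and radial glia-like cells, all of which are fewer cells. The median ratio of these classes, at 1.0 to 1.05, was near that of retained cells. *Npy* was first by its lowest ratio over the libraries, at 9.43, 19.3 and 13.8, followed by *Actb*, *Malat1*, *Sst*, *Cst3*, *Apoe* and 4 mitochondrial genes. *Sst* encodes the interneuron peptide somatostatin, and *Apoe* and *Cst3* are expressed by glia and microglia. *Nrgn* had ratios of 1.28, 1.48 and 1.45 and *Mef2c* of 1.15, 1.21 and 1.24. *Neurod6*, at 1.06, 1.12 and 1.04, and *Neurod2*, at 1.05, 1.0 and 0.967, hardly exceeded 1, at a depth where most cells hold 0 or 1 of their UMIs.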

How the data were processed

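The study measured single-cell RNA from sorted tdTomato-positive cells of mouse mPFC in 3 libraries, 1 per genotype. Per the labels and the study's methods, the authors aligned reads to mm10 with Cell Ranger 2.0.1 (version and build from the submitters' processing notes), removed cells by UMIs, genes and mitochondrial share, took 3 neuronal clusters and filtered these again. The deposited filtered table holds raw UMI counts, not normalized, and the deposited matrices hold UMI counts of all barcodes. A neuronal table named as raw, which holds natural-log values, and a normalized table of scaled scores were not used, since ratios of UMIs need a true zero.

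UMIs were summed per library and cell group and scaled to CPM with Python 3.11.15, numpy 2.4.6, scipy 1.17.1 and pandas 2.3.3. Genes that averaged 20 CPM or more entered, and a gene was called at a log2 ratio of 1 or −1 in each of the 3 libraries. A sum of 0 was set to a floor of 3 counts. Other cells were clustered with scanpy 1.11.5 and leidenalg 0.10.2 (2000 variable genes, 20 components, 15 neighbours, resolution 0.8) and clusters were named X-like from fixed markers. No doublet caller was run, and the 5% of cells with the most UMIs were left out as an alternative. TMM and DESeq2 factors came from edgeR 4.0.16 and DESeq2 1.42.0 in R 4.3.3. The calculation of ratios and intervals was tested on simulated data. Figures were drawn with matplotlib 3.10.9. Gene positions are those of GRCm38.

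The genes named are the 4 markers, the 15 highest and 10 lowest ratios at 100 CPM or more, the 10 most abundant and 10 most variable genes, up to 4 highest and 2 lowest members of each list, mitochondrial and ribosomal genes and *Rbp4*. Genes named from the comparisons with single classes, with barcodes outside the table and without marker-rich clusters were chosen after their values had been seen. List sums without *Nrgn* or *Cnih2* were added after the data had been seen. The cells and gene lists were chosen with earlier results of these data known.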

Additional observations from a re-analysis of the deposited data

Results flagged for a closer look

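Barcodes outside the filtered table, which no comparison of the study uses, carried the 4 excitatory markers above the limit that a count of 0 allows. *Neurod6*, *Nrgn*, *Neurod2* and *Mef2c* together stood at 1498, 2044 and 2319 CPM (wild-type, heterozygous, homozygous) in barcodes of 100 or more but under 500 UMIs. In barcodes of 500 to under 1000 UMIs they stood at 1709, 2329 and 2664 CPM. Retained cells of the same libraries had 2616, 3051 and 3809 CPM. The source of these UMIs was not tested.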

How the results depend on the processing

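The mean log2 ratios of *Neurod6*, *Nrgn*, *Neurod2* and *Mef2c* kept their direction under each alternative run. Starting from 1 gene higher and 669 lower, the counts were 17 and 3460 without a minimum level, 0 and 87 at a minimum of 100 CPM, 69 and 335 with TMM factors, 94 and 315 with DESeq2 factors, 40 and 1065 without excitatory neuron-like cells, and 166 and 1111 with equal weight for each class of other cells. Thinning each cell and subtracting the profile of the low-count barcodes each gave 2 genes higher, and leaving out the 5% of cells with the most UMIs gave 0. *Neurod6*, *Neurod2* and *Mef2c* rose to 1.87, 1.45 and 1.11 with TMM factors and to 1.92, 1.5 and 1.16 with DESeq2 factors, and *Neurod6* and *Neurod2* to 1.84 and 1.53 with equal class weight. Leaving out 1 library at a time gave 1 to 54 genes higher and 613 to 1076 lower, with 54 and 1076 without the heterozygous library, and ratios of 1.09 to 1.56 for *Neurod6*, 0.85 to 1.62 for *Nrgn*, 0.70 to 1.15 for *Neurod2* and 0.29 to 0.78 for *Mef2c*. Among alternatives chosen after seeing the data, leaving out the marker-rich clusters gave 133 and 1285 genes and ratios of 1.91, 2.04 and 1.40 for *Neurod6*, *Nrgn* and *Neurod2* and 0.77 for *Mef2c*, comparison cells under 4000 UMIs gave 6 higher, and a median of all genes set to 0 gave 7 higher. Without thinning, the mean shares of retained cells with a UMI were 31.7% for *Neurod6*, 92.2% for *Nrgn*, 7.27% for *Neurod2* and 65.3% for *Mef2c*, against 19.7%, 81.9%, 4.14% and 47.6% at 1000 UMIs. Apart from the changes that fewer genes or cells bring by construction, the cause was not tested. Retained and other cells were paired by library in each ratio, and no test was run.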

Other observations

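*Rbp4*, whose regulatory sequence drives the Cre, was higher in inhibitory neuron-like cells outside the neuronal list than in retained cells in each library. In wild-type, heterozygous and homozygous order it stood there at 28.4 (20.9 to 37.6), 157 (126 to 193) and 150 CPM, and in retained cells at 12.3, 14.7 and 14.3 CPM. Excitatory neuron-like cells had 17.9, 15.2 and 7.63 CPM. The inhibitory neuron-like class joins a cluster of 340 cells (128, 103 and 109) and one of 758 cells (589, 79 and 90), so its makeup differs between libraries. Whether this mix goes with its *Rbp4* level was not tested. The libraries differ in genotype and have no replicate, so a difference between genotypes cannot be told apart from one between libraries.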
